A study of Mus musculus with 13 samples.

Results

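The transcripts of 10 genes through which fat cells store triglyceride, release it and signal to other tissues were followed in mammary tumors that overexpress TSG101 and in mammary glands without the transgene. The set was fixed by name. It holds 4 genes for secreted adipokines (Adipoq, Lep, Retn and Cfd), 3 for proteins that coat the lipid droplet (Plin1, Plin4 and Cidec) and 3 for lipases (Lipe, Pnpla2 and Lpl). All 10 were among the 15213 genes of the deposited table. The table covers RNA-seq libraries of whole, flash-frozen tissue, with 10 mammary tumors taken from 6 females of the MMTV-tTA TetO-Tsg101 genotype and the mammary glands of 3 wild-type FVB females as controls. In the tumor-bearing females the tetracycline-controlled transactivator (tTA) is driven by the mouse mammary tumor virus (MMTV) promoter and switches on a TetO-Tsg101 transgene that also encodes luciferase. This promoter is known for its activity in mammary and salivary epithelium. The transgene came from a single founder line, and both groups share the FVB background. The glands carried neither transgene, so that tumor formation, the transgenes and the tissue sampled differ together between the groups. Tumors 2 and 3 shared a female, as did tumors 5 and 6 and tumors 8, 9 and 10, and the remaining 3 females gave 1 tumor each, so that the 10 tumors were not all independent samples. The labels give neither the age nor the reproductive stage of the females.

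The mammary epithelium grows as a tree of ducts inside a pad of white fat, and adipocytes make up much of the resting gland. The labels do not say whether the control glands were resting, and milk genes were high in them, as given below. An adipocyte keeps triglyceride in a single large droplet. Perilipin 1 and CIDEC sit on that droplet and limit the access of lipases, and the lipases ATGL (Pnpla2) and hormone-sensitive lipase (Lipe) release fatty acids from it in succession when catecholamines arrive. Lipoprotein lipase (Lpl) works outside the cell, where it frees fatty acids from circulating lipoproteins for uptake. Adiponectin (Adipoq), leptin (Lep), resistin (Retn) and adipsin (Cfd) are secreted. Adiponectin and the perilipin 1 coat are close to specific for adipocytes, whereas ATGL and lipoprotein lipase are made in many tissues, the lactating mammary epithelium included for the latter.

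Because these genes were compared as a group, the sequences just upstream of some of their start sites are shown, as RefSeq gives them on GRCm38.p6. Each run is the 120 bases before 1 start site of the gene, 5′ to 3′ on the gene's own strand. The runs of Plin1 and Lipe precede a start inside the span of the gene given below, and not its outer end. Capitals mark a match, on either strand, to the C/EBP core TTGCNNAA or to the GC box GGGCGG. The GC boxes in Lep, Lipe and Pnpla2 and the C/EBP cores in Lep and Plin1 can be compared with Adipoq, which holds neither in this stretch.
Adipoq (chr16:23146416-23146535, plus strand): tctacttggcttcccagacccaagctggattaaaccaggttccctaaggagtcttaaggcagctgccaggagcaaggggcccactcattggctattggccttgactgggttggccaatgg
Lep (chr6:29060101-29060220, plus strand): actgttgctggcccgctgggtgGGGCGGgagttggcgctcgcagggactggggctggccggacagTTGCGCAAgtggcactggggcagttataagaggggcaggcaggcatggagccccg
Plin1 (chr7:79732777-79732896, minus strand): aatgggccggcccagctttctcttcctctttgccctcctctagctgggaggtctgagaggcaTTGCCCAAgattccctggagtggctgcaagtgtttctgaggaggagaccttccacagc
Lipe (chr7:25395988-25396107, minus strand): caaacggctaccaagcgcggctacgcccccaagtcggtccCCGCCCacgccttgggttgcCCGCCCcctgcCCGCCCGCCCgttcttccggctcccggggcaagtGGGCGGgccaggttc
Pnpla2 (chr7:141455068-141455187, plus strand): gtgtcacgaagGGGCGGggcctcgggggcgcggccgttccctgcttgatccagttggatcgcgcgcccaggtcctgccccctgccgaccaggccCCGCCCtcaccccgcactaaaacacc
RefSeq windows were matched for 9 of the members, all but Lpl, with 11 windows because Cidec and Lipe have more than 1 window each. The start sites used for Plin1, Plin4 and Lipe, and 1 of those for Cidec, lie inside the span of the gene. Starts further out in these genes were not all covered. Over the 250 bases before the start, the C/EBP core was found in 3 of the 11 windows, those of Lep and Plin1 and 1 of Cidec, where 9.56% of all 32851 windows hold it. In Lep it began 55 bases before the start, in Plin1 58 and 187 bases and in Cidec 198 bases. The GC box was also found in 3 of the 11 windows, those of Lep and Pnpla2 and 1 of Lipe, where 32.7% of all windows hold it. The Lipe window had 6 of them, and those that begin 49 and 45 bases before the start overlap. The nuclear receptor motif AGGTCA (14.02% of all windows) and the TATA box TATAAA (12.4%) matched in no member window. A match describes these letters only and is not evidence that a factor binds there.

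Tumor libraries held 6176269 to 16835397 reads and gland libraries 11672487 to 23889042. Levels are given as the deposited normalized cpm, that is, reads scaled to the size of the library and by a factor for each library. Where no read was counted, a level of up to 3 reads remains possible (confidence level 95%, counting error only), or 0.141 to 0.683 normalized cpm in a tumor and 0.128 to 0.366 in a gland. Tsg101 itself was listed at 49.9 to 101 normalized cpm in the tumors (median 63.4) and at 45.6, 53.0 and 61.0 in the glands. Its log2 fold change of 0.30 (SE 0.20) was not called (adjusted p = 0.279, limma), and 6 of 10 tumors lay above all 3 glands, so that the transcript level did not by itself separate the groups as the labels do. The ribosomal RNA precursor Rn45s took 27.4% of the reads of tumor 9, 9.32% of those of tumor 6, 0.456% to 4.07% of those of the other 8 tumors and 0.296% to 4.35% of those of the glands.

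All 10 genes were lower in the tumors than in the glands. In limma's test on log2(normalized cpm + 1) over all listed genes, a gene was called when its Benjamini-Hochberg FDR was below 0.05 and its change was more than 2-fold, and 10 of 10 members were called lower. Among all 15213 genes, 10.1% were called lower and 10.5% higher (1538 and 1603 genes). This split depended on the scaling of the libraries, with 1077 lower and 2374 higher for cpm without scaling factors and 2273 lower and 1062 higher when scaled to luminal epithelial genes, while all 10 members were called lower under both. For each member, all 10 tumors lay below all 3 glands, which was the case for 10.3% of all genes. The median log2 fold change of the members was -5.17, against 0.01 for all genes. In whole tissue, fewer cells of a type and less RNA per cell cannot be told apart, and nothing below separates these. The p-values treat the tumors as separate samples, although some share a female.

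**Figure D1:**
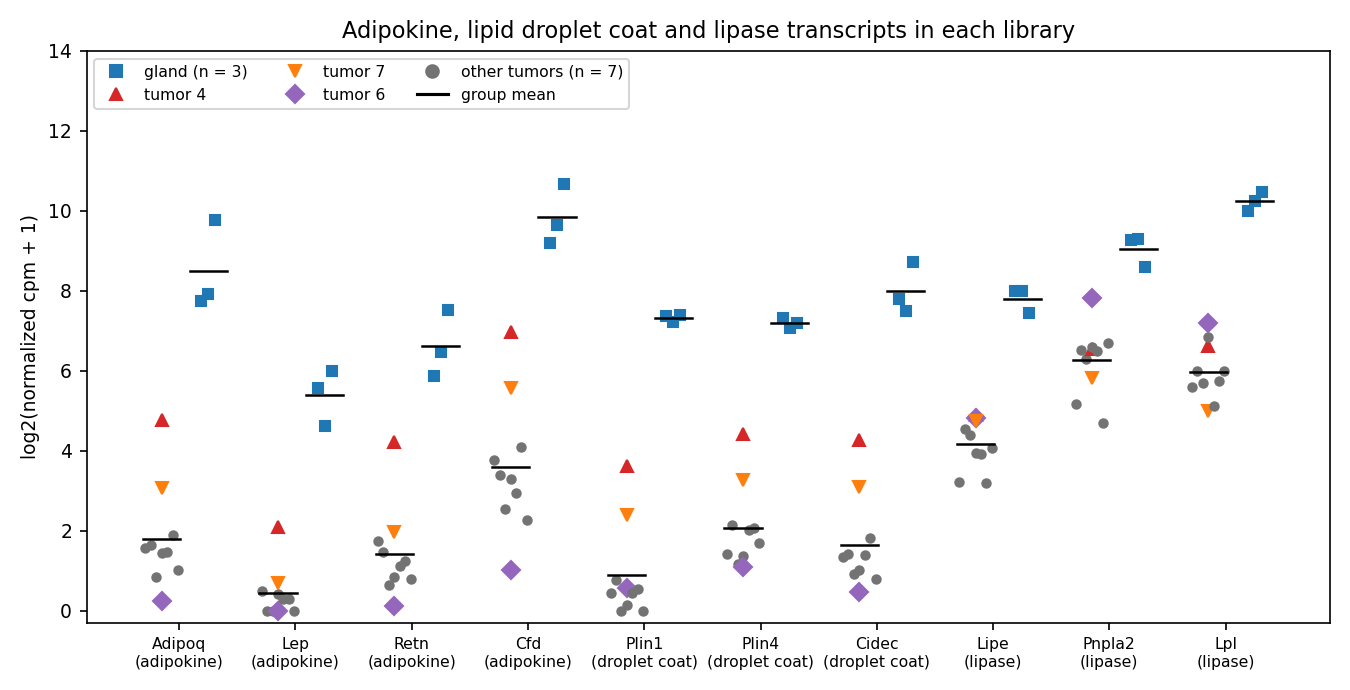
Level of each of the 10 members in each library, as log2(normalized cpm + 1), for 3 glands (blue squares) and 10 tumors, with tumors 4, 6 and 7 marked by their own symbols and a black bar at each group's mean on this scale. The glands lie above all tumors for every gene. The distance from the lowest gland to the highest tumor is narrowest for Pnpla2, where tumor 6 comes nearest to the glands (1.71-fold), and widest for Plin1 (13.03-fold).

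Among the adipokines, Adipoq (Entrez 11450, chr16:23146536-23157968, GRCm38.p6) encodes adiponectin, a hormone that raises insulin sensitivity and fatty acid oxidation. It was at 0.189 to 26.4 normalized cpm in the tumors (median 1.87) and at 214, 243 and 869 in glands 1, 2 and 3. The lowest gland was thus 8.10 times the highest tumor, while the glands themselves spread 4.06-fold, with gland 3 on top. The tumor mean of 4.62 ± 7.92 (SD, n = 10) was 1.04% of the gland mean of 442 ± 370 (SD, n = 3). The log2 fold change, between the group means of log2(normalized cpm + 1), was -6.68 (SE 0.73, adjusted p = 7.90e-06, limma).

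Lep (Entrez 16846, chr6:29060221-29073876) encodes leptin, which reports the size of the fat stores to the hypothalamus. It was at 46.6, 23.5 and 62.5 normalized cpm in the 3 glands. No read was counted in tumors 2, 3, 6 and 10, and 7 of 10 tumors were at or under the limit set by 3 reads. The tumor median was 0.231 and the highest value, 3.24 in tumor 4, rested on 69 reads. The log2 fold change of -4.96 (SE 0.39, adjusted p = 4.06e-07, limma) depends for so low a gene on the added constant of 1. With 0.1 or 5 in its place, and over the other alternatives, it lay between -7.09 and -3.09.

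Retn (Entrez 57264, chr8:3655770-3659818) encodes resistin, a small cysteine-rich peptide that mouse adipocytes secrete and that impairs the action of insulin. Its levels ran from 0.0944 to 17.7 normalized cpm in the tumors, with a median of 1.27, and were 57.8, 88.2 and 182 in the glands. The tumor with the highest level, tumor 4, stood well above the others and still below every gland. On the log2 scale the difference was -5.20 (SE 0.63, adjusted p = 2.15e-05, limma). Cfd (Entrez 11537, chr10:79890853-79892655) encodes adipsin, the complement factor D that starts the alternative pathway. It was the most abundant adipokine in both groups, at 585, 800 and 1625 normalized cpm in the glands and 1.04 to 124 in the tumors (median 9.11). Its tumor values ran from tumor 6 at the bottom to tumor 4 at the top, and none reached a gland. Cfd fell by 6.25 on the log2 scale (SE 0.90, adjusted p = 9.45e-05, limma).

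Of the droplet coats, Plin1 (Entrez 103968, chr7:79721164-79732904) encodes perilipin 1, the gatekeeper of the adipocyte droplet. The glands were close to each other, at 164, 148 and 167 normalized cpm. In the tumors the median was 0.408, no read was counted in tumors 3 and 10, and the highest value was 11.4. The groups did not overlap. The tumor mean was 1.14% of the gland mean, and the log2 fold change was -6.43 (SE 0.63, adjusted p = 2.81e-06, limma).

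Plin4 (Entrez 57435, chr17:56100587-56109948), another perilipin, coats small nascent droplets. Its glands also lay close together, at 160, 134 and 145 normalized cpm. The tumors ranged from 1.13 to 20.4 with a median of 2.64, so that, unlike Plin1, every tumor held some reads. The log2 fold change was -5.13 (SE 0.56, adjusted p = 7.50e-06, limma). Cidec (Entrez 14311, chr6:113424634-113435760) encodes the protein that lets small droplets pass their lipid into larger ones. It was at 222, 178 and 424 normalized cpm in the glands and 0.378 to 18.2 in the tumors (median 1.60). Gland 3 was again the highest and tumor 6 the lowest. Cidec fell by 6.35 on the log2 scale (SE 0.64, adjusted p = 3.68e-06, limma).

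The mean level of the lipases in the tumors was between 5.73% and 16.4% of that in the glands, and that of the other 7 members between 1.04% and 3.19%, a difference that is described here and was not tested over the whole groups. Lipe (Entrez 16890, chr7:25379527-25398486), hormone-sensitive lipase, hydrolyses mainly diglyceride. It was at 253, 253 and 172 normalized cpm in the glands and at 8.19 to 28.9 in the tumors (median 17.8), with reads in every tumor. The tumor mean of 18.5 ± 7.51 (SD, n = 10) was 8.17% of the gland mean of 226 ± 46.9 (SD, n = 3). Its log2 fold change was -3.63 (SE 0.35, adjusted p = 2.39e-06, limma).

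Pnpla2 (Entrez 66853, chr7:141455188-141460743) encodes ATGL, which removes the first fatty acid from triglyceride. It showed the smallest fall of the 10. The glands were at 616, 623 and 385 normalized cpm and the tumors at 25.04 to 226, with a median of 89.9. The lowest gland was 1.71 times the highest tumor, the narrowest gap among the members. The log2 fold change was -2.78 (SE 0.47, adjusted p = 3.95e-04, limma), and the tumor mean was 16.4% of the gland mean.

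Lpl (Entrez 16956, chr8:68880555-68906932), lipoprotein lipase, was at 1012, 1207 and 1423 normalized cpm in the glands. In the tumors it ran from 30.6 to 145 around a median of 57.3. The tumor mean was 5.73% of the gland mean and the spread over the glands was small (1214 ± 206, SD, n = 3). The log2 fold change was -4.26 (SE 0.39, adjusted p = 1.67e-06, limma).

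Levels of different genes were compared per kilobase of exon. In the glands the mean level per kilobase was highest for Cfd, at 1088 ± 596 normalized cpm per kb (SD, n = 3), then Adipoq at 320 ± 268, Pnpla2 at 179 ± 44.8, Cidec at 148 ± 70.6 and Lpl at 116 ± 19.6. Retn (69.2), Lipe (38.4), Plin1 (34.3), Plin4 (25.3) and Lep (13.2) followed. The place of Adipoq rested on gland 3: it was at 155, 176 and 630 normalized cpm per kb in glands 1, 2 and 3, and Pnpla2 at 204, 206 and 128, so that Adipoq was the lower of the pair in glands 1 and 2. Neighbours in this order from Adipoq to Lpl, and from Retn to Plin1, differed by less than the larger of their SDs over the glands. In the tumors the order was another one. By the median over the 10 tumors, Pnpla2 came first at 29.8 normalized cpm per kb, followed by Cfd (9.88), Lpl (5.47), Lipe (3.02), Adipoq (1.36), Cidec (0.864), Retn (0.805), Plin4 (0.457), Plin1 (0.0877) and Lep (0.0690). The tumor means of the adipokines were drawn up by tumor 4, to 25.3 for Cfd and 3.35 for Adipoq. No test was made of the order.

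The members did not vary together over the tumors as 1 block. Tumor 4 was the highest of the 10 tumors for 8 members and tumor 7 was second for 7 members, namely the 4 adipokines and the 3 droplet coats. In tumor 4, Retn stood at 16.2% of the gland mean, Plin4 at 13.9%, Cfd at 12.3%, Lep at 7.32%, Plin1 at 7.12%, Cidec at 6.63% and Adipoq at 5.98%. In the 8 tumors other than tumors 4 and 7, the means of these 7 genes were between 0.193% (Plin1) and 1.499% (Plin4) of the gland mean. The lipases changed less when both tumors were left out, to 7.19% for Lipe, 17.1% for Pnpla2 and 5.84% for Lpl. All 10 members were still called lower without tumors 4 and 7, an alternative added after the data were seen.

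Tumor 6 was low for most adipokines and coats and high for the lipases. It was the lowest tumor for 5 members, Adipoq (0.189 normalized cpm, 2 reads), Retn (0.0944, 1 read), Cfd (1.04, 11 reads), Plin4 (1.13, 12 reads) and Cidec (0.378, 4 reads), and had no Lep read. Plin1, at 0.472 normalized cpm (5 reads), was not among them and ranked 4 of the 10 tumors. The same library had the highest Pnpla2 (226 normalized cpm, 2389 reads) and Lpl (145, 1535 reads) of all tumors, and the second highest Lipe (27.1, 287 reads). Pnpla2 in tumor 6 was 41.6% of the gland mean, whereas Adipoq was 0.0427%. Tumor 5, from the same female, had the second highest Lpl at 113 normalized cpm and an Adipoq level of 1.71. Tumor 9 was lowest for Lipe (8.19) and Pnpla2 (25.04). That is the library in which Rn45s took the most reads. Tumor 1, with Rn45s at 1.21% of its reads, was nearly as low for Lipe (8.28) and second lowest for Pnpla2 (34.7). Tumor 6, second for Rn45s (9.32%), had the highest Pnpla2. A link between Rn45s and these levels was not tested.

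**Figure D2:**
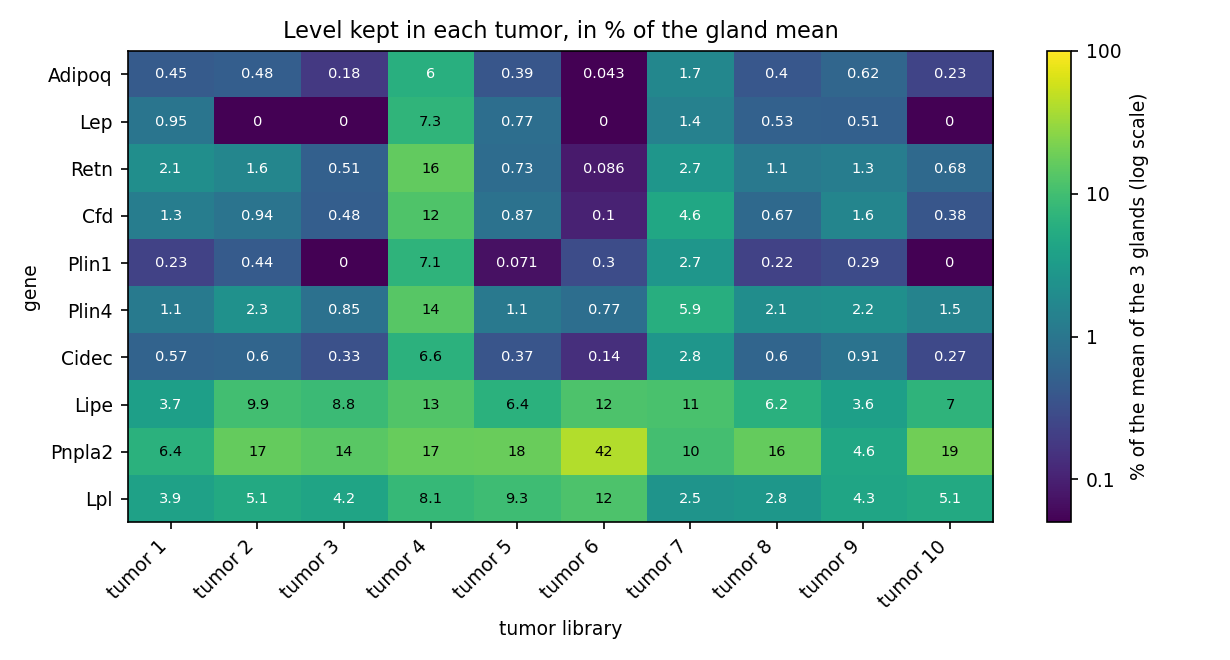
Level of each member in each tumor as a percentage of the mean of the 3 glands, with a colour scale that is logarithmic and values printed in the cells. Tumors 4 and 7 stand out in the upper 7 rows (adipokines and droplet coats), and tumor 6 is darkest for Adipoq and Retn while it has the highest Pnpla2 cell, at 41.6%.

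Markers of the cell types that the tissue could hold were summed in each library. The adipocyte list (Fabp4, Slc2a4, Aqp7, Car3, Adrb3, Acvr1c, Pparg and Cebpa, with no member in it) summed to 112 to 434 normalized cpm in the tumors and to 3167, 3281 and 9031 in the glands. Of its 8 genes 7 were called lower, and all tumors lay below all glands for each of the 8. The highest tumors on this list were tumor 4 (434) and tumor 7 (274), the same tumors that stood out for the adipokines and droplet coats. Car3, a gene of fat and muscle, was at 125 in tumor 4. Gland 3 had the highest sum among the glands as it had the highest level of 7 members. Fabp4 alone was at 7546 of that sum. Gland 3 was the lowest gland for Aqp7 (27.1 against 38.5 and 47.7) and Cebpa (139 against 256 and 242), and the highest for the rest of the list. The part of these cells in the members' levels was not tested. No gene of the list was at 0 in all tumors.

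Other lists moved with the groups too. Brown adipocyte genes summed to 12.4 to 38.6 normalized cpm in the tumors and 238, 136 and 463 in the glands, with 3 of 5 called lower. The defining gene Ucp1 was at 14.4 to 108 in the glands and at most 1.08 in the tumors. Milk genes, caseins and whey proteins among them, summed to 119456, 134055 and 176973 in the glands and to between 1393 and 50021 in the tumors, and 8 of 8 were called lower. Tumor 6, highest for Pnpla2 and Lpl, also had the highest milk sum (50021), and tumor 5 was second (23186). No reproductive stage is given, so the groups could not be matched for it, and its part in the members' levels was not tested. Endothelial genes were lower in the tumors (4 of 5 called, 39.0 to 93.0 against 454, 454 and 167). Lymphocyte genes were called lower for 5 of 6 (7.53 to 85.9 against 430, 21.1 and 310). Luminal epithelial genes, by contrast, were called in neither direction by limma, edgeR or DESeq2 (0 of 6, with 2 higher at an unadjusted p below 0.05 in limma, of which Epcam had an adjusted p of 0.0233 and all 10 tumors above all glands but a log2 fold change of only 0.65), at 1567 to 2167 in the tumors and 1382, 2067 and 949 in the glands. The 4 basal epithelial genes were all called higher (913 to 4236 against 233, 363 and 181). Of the macrophage genes 1 of 6 was called higher (649 to 4214 against 614, 305 and 1660), and of the fibroblast and preadipocyte genes 2 of 6 were called lower (162 to 718 against 597, 688 and 1053). Skeletal muscle genes were called in neither direction by the 3 tools, and 0 of 5 had an unadjusted p below 0.05 in limma, but they summed to 1900 in tumor 4 and 323 in tumor 10 against 2.12 to 11.6 in the other tumors and at most 20.6 in the glands. The tumor with the highest adipokine levels was therefore also the one with the most muscle transcripts, and the part of this in the members' levels was not tested.

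**Figure D3:**
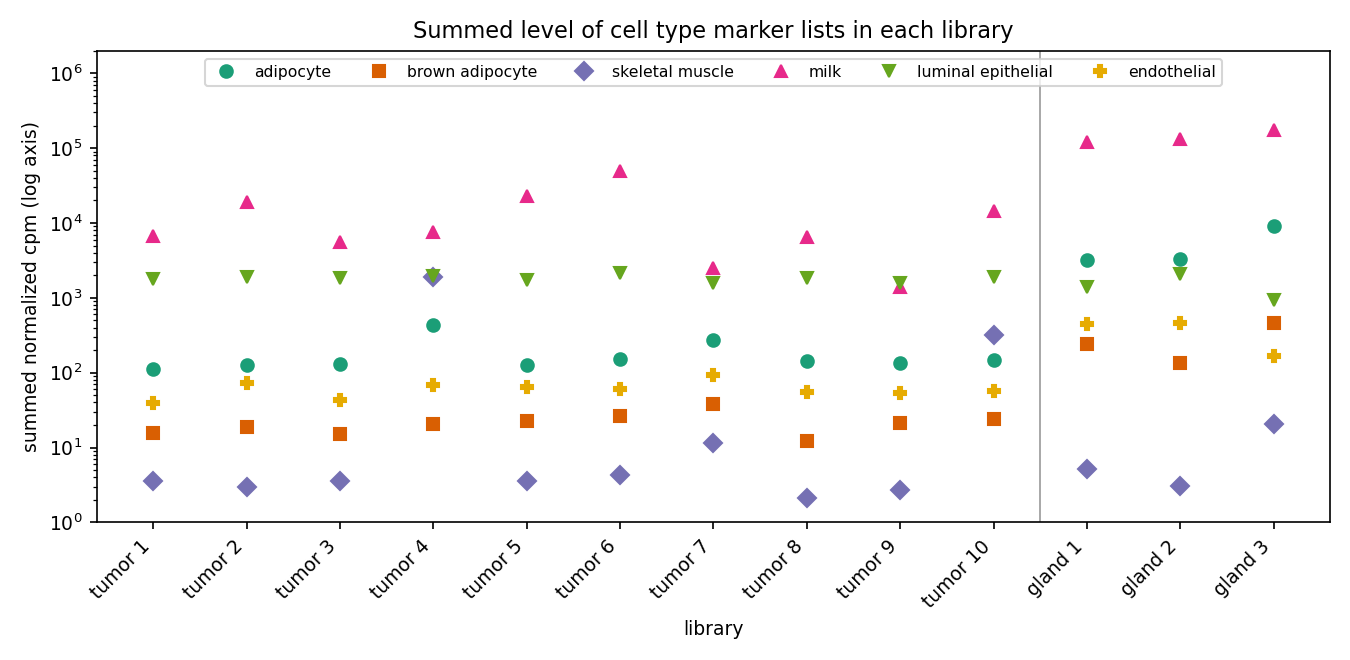
Summed normalized cpm of 6 marker lists in each library, on a log axis, with the tumors left of the vertical line and the glands right of it. Adipocyte and milk sums are higher in all 3 glands than in any tumor, luminal epithelial sums overlap, and the skeletal muscle sum of tumor 4 (1900) lies far above those of the glands.

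Whether neighbouring members fell unequally was asked with 5 log2 ratios within each library, each tested with an exact two-sided permutation test over the 13 libraries (smallest possible p = 0.00699) and adjusted over the 5 pairs. The ratio of Plin1 to Plin4 was lower in all 10 tumors than in any gland. Its log2 value averaged -1.17 ± 0.378 (SD, n = 10) over the tumors, against 0.127 ± 0.0825 (SD, n = 3) over the glands, a difference of -1.30 (exact permutation p = 0.00699, adjusted p = 0.0350). Thus Plin1 fell further than Plin4. Since Plin1 was near or at 0 reads in several tumors, the size of this difference depends on the added constant of 1. With 0.1 it was -2.49 and with 5 it was -0.59, and both passed the exact test. With 1 value per female the difference was -1.19 with an adjusted p of 0.119, by the same exact test, which is the smallest adjusted p that 6 against 3 allows for a single pair that stands out. Without gland 1, 2 or 3 it was -1.34, -1.29 and -1.26 and did not pass the exact test with the glands that were left (adjusted p = 0.0758, 0.152 and 0.152).

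For the lipases inside the cell, the log2 ratio of Lipe to Pnpla2 averaged -2.09 ± 0.609 (SD, n = 10) over the tumors, against -1.25 ± 0.0736 (SD, n = 3) over the glands. The difference of -0.85 did not pass after adjustment (exact permutation p = 0.0350, adjusted p = 0.0583). The log2 ratio of Adipoq to Lep averaged 1.37 ± 0.731 (SD, n = 10) over the tumors, against 3.09 ± 0.824 (SD, n = 3) over the glands, and the difference of -1.72 did not pass either (exact permutation p = 0.0210, adjusted p = 0.0524). Both passed without tumor 7 (-0.96 and -1.83, adjusted p = 0.0227 and 0.0303 in the exact test), and Adipoq to Lep also without tumor 4 (-1.87, adjusted p = 0.0455 in the exact test). As Lep had few or no reads in most tumors, the size of the Adipoq to Lep difference depends on the added constant, at -0.25 with 0.1 (adjusted p = 0.671, exact test) and -2.39 with 5 (adjusted p = 0.0175, exact test). Cidec to Plin1 (0.08, exact permutation p = 0.720, but 1.03 and -0.38 with constants of 0.1 and 5) and Lpl to Lipe (-0.63, exact permutation p = 0.217, adjusted p = 0.271) were not distinguishable between the groups.

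Genes of related roles were read in 5 lists. Where a list had no gene called higher by limma, 0 of its genes were higher at an unadjusted p below 0.05, and edgeR and DESeq2 on the recovered reads also called 0 higher. Of 7 other adipokine genes, 3 were called lower and 1 higher, with a median log2 fold change of -1.49. Apln, which encodes the vasoactive peptide apelin, fell by 3.49 (SE 0.64, adjusted p = 7.56e-04, limma) and Rbp4, the plasma carrier of retinol, by 3.43 (SE 0.52, adjusted p = 1.50e-04). Rarres2, the chemoattractant chemerin, fell by 2.32 (SE 0.43, adjusted p = 7.59e-04). Metrnl, which encodes a secreted factor of muscle and fat, went the other way. It was at 15.5 to 48.1 normalized cpm in the tumors and 8.18, 10.4 and 15.1 in the glands, so that all 10 tumors lay above all glands (log2 fold change 1.08, SE 0.32, adjusted p = 0.0178, limma). The Metrnl call was lost in 7 of the alternatives, among them those without tumor 7 (0.98), gland 1 (0.89) or gland 2 (1.05). Nampt (-0.62), Agt (0.24) and Retnla (-1.49), the log2 fold changes of which had adjusted p of 0.219, 0.734 and 0.185, were not called.

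Of the 7 genes for adipokine receptors and binding proteins 3 were called lower and none higher (median -0.36). Aplnr, the apelin receptor of endothelium, fell by 2.82 (SE 0.39, adjusted p = 6.65e-05, limma), and Cdh13, the T-cadherin that binds adiponectin multimers, by 2.41 (SE 0.41, adjusted p = 3.98e-04). Adipor2, an adiponectin receptor, was at 45.3 to 104 normalized cpm in the tumors against 251, 250 and 292 in the glands. It fell by 1.91 on the log2 scale (SE 0.19, adjusted p = 4.21e-06). Its relative Adipor1 was at 75.8 to 126 against 110, 124 and 170, and its log2 fold change of -0.30 (SE 0.18) did not pass (adjusted p = 0.221). Lepr (-0.26), Cap1 (-0.36) and Cmklr1 (0.19) did not pass either.

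Among 9 further droplet genes, 6 were called lower and none higher, with a median of -1.72. Cidea, the relative of Cidec found in brown fat and in milk-secreting epithelium, fell by 4.02 (SE 0.48, adjusted p = 2.00e-05, limma). Cav1, the main protein of caveolae, fell by 2.88 (SE 0.27, adjusted p = 1.93e-06). The remaining perilipins were chosen after their values were seen, to complete the family. Plin2, the perilipin of cells other than adipocytes and of milk fat globules, was by far the most abundant of them, at 2010, 3192 and 1648 normalized cpm in the glands and 163 to 1369 in the tumors. Plin2 fell by 2.75 (SE 0.51, adjusted p = 8.71e-04) and Plin5, the perilipin of oxidative tissue, by 1.90 (SE 0.31, adjusted p = 2.87e-04). Plin3, found in most cells, had overlapping groups (70.8 to 182 in the tumors, 71.7, 87.9 and 114 in the glands) and a log2 fold change of 0.24 (SE 0.26, adjusted p = 0.510), the sign of which turned when libraries were scaled to luminal epithelial genes. Bscl2, the seipin of droplet formation, was at -0.97 (SE 0.25, adjusted p = 0.00839) and thus short of a 2-fold change, which it passed without tumor 3 (-1.01), tumor 6 (-1.05) or gland 3 (-1.17). Hilpda was at 0.50 (SE 0.47, adjusted p = 0.457).

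Among 13 genes that work beside the lipases, 11 were called lower and none higher, with a median of -2.84. The largest falls were those of Fabp4, the fatty acid carrier of the adipocyte (-6.28, SE 0.71, adjusted p = 1.09e-05, limma), and of Ces1d, a triglyceride hydrolase (-5.69, SE 0.64, adjusted p = 1.04e-05). Fabp4 was at 1970, 2221 and 7546 normalized cpm in the glands and at 9.91 to 187 in the tumors. The partners of the members differed among themselves. Gpihbp1, which carries lipoprotein lipase across the capillary wall, fell by 2.59 (SE 0.54, adjusted p = 0.00206) and is named here after its value was seen. Abhd5, the coactivator of ATGL, was at 113 to 383 normalized cpm in the tumors and 186, 218 and 409 in the glands, and the log2 difference of -0.33 (SE 0.37) did not pass (adjusted p = 0.540). Lmf1, needed to fold lipoprotein lipase, was at -0.54 (SE 0.36, adjusted p = 0.272).

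Of the 10 regulators of fat cell formation, 5 were called lower and 1 higher, with a median of -0.99. Pparg, the master regulator of adipogenesis, was at 41.8, 42.1 and 44.1 normalized cpm in the glands and at 0.910 to 4.51 in the tumors (-3.89, SE 0.29, adjusted p = 2.24e-07, limma). Ebf1 fell by 2.56 (SE 0.23, adjusted p = 1.43e-06), Cebpa by 1.74 (SE 0.29, adjusted p = 3.23e-04), Klf15 by 1.61 (SE 0.45, adjusted p = 0.0128) and Nr1h3, the liver X receptor alpha, by 1.27 (SE 0.28, adjusted p = 0.00273). The Nr1h3 call was lost without gland 3 (-0.84). Cebpd, a C/EBP factor that acts early in adipogenesis and in inflammation, was higher in all 10 tumors, at 48.9 to 89.8 normalized cpm against 15.1, 22.4 and 16.5 (1.81, SE 0.18, adjusted p = 4.08e-06). Cebpb had overlapping groups (70.7 to 199 against 153, 205 and 36.3), and its log2 fold change of 0.26 (SE 0.39) did not pass (adjusted p = 0.652).

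**Figure D4:**
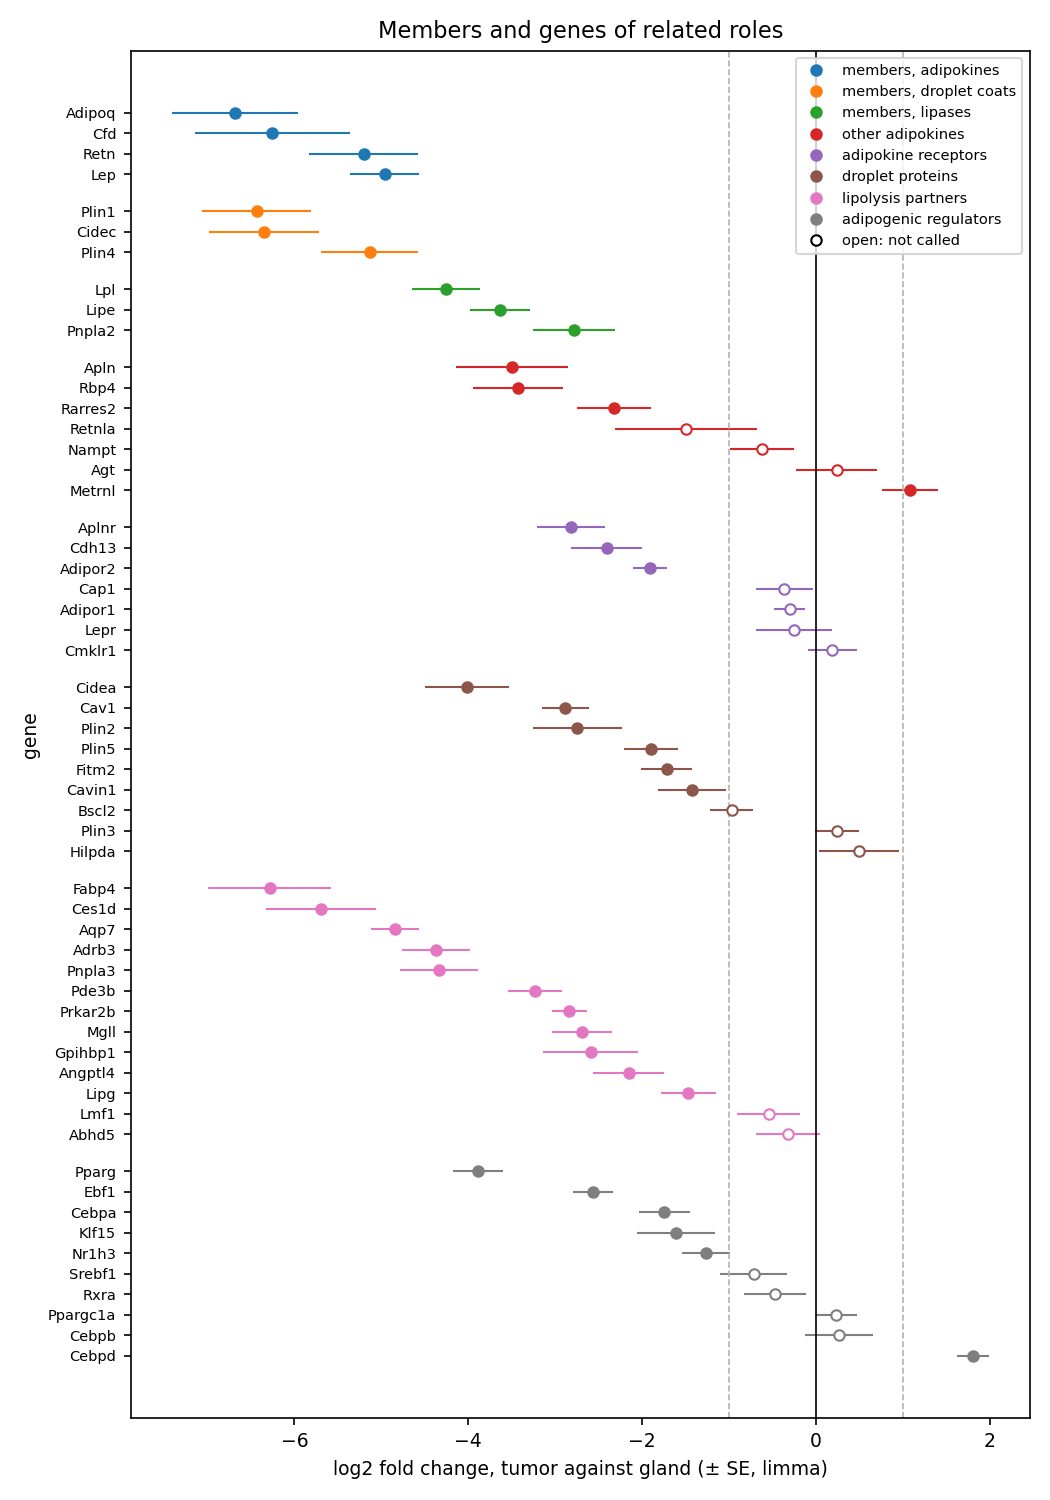
Log2 fold change of tumors against glands, with limma's SE as bars, for the 10 members and the genes of the 5 related lists, where filled points were called and open points were not, and dashed lines mark a 2-fold change. All members lie left of -2, whereas Metrnl and Cebpd are the called genes of these lists on the right.

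The genes most like the members over the tumors were searched among 14592 genes, by Pearson's r over the 10 tumors with the mean log2 level of the members. The 5 with the highest r were Abcd2 (0.976), a peroxisomal fatty acid transporter, Car3 (0.945), a carbonic anhydrase of fat and muscle, the transcription factor gene Tbx15 (0.943), Cyp2e1 (0.927), and Pck1 (0.926), the enzyme of glyceride and glucose synthesis. These values are descriptive, since tumors from a shared female are not independent and tumors 4 and 7 are far from the rest. Over the other 8 tumors r was 0.833 for Abcd2 and between 0.257 and 0.542 for the other 4 genes, so that most of the likeness of these 4 rested on tumors 4 and 7. All 5 were called lower in the tumors. Car3 fell by 6.92 (SE 0.95, adjusted p = 6.39e-05, limma) and was at 746, 630 and 1133 normalized cpm in the glands, 125 in tumor 4 and 24.5 in tumor 7, with a tumor median of 3.22. Pck1 fell by 7.23 (SE 0.71, adjusted p = 3.26e-06) and reached 15.5 normalized cpm in tumor 4 and 8.49 in tumor 7 against 313, 392 and 370 in the glands. Tbx15 had the smallest fall of the 5 (-1.74, SE 0.43, adjusted p = 0.00687), and its groups overlapped, with 9.20 normalized cpm in tumor 4 against 7.79, 5.01 and 10.8 in the glands.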

How the data were processed

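Total RNA of flash-frozen tissue was sequenced from 10 tumors and 3 glands. The authors mapped 75 bp paired-end reads to mm10 with Rsubread 2.0.0, obtained counts of genes with featureCounts and normalized these with edgeR 3.28.0. The strand setting and the treatment of reads on overlapping or near-identical genes are not given in the sources used here, so such reads could not be reassigned. Libraries came from UNMC and Novogene per the labels, without a map to samples, and no batch could be tested.

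The authors deposited normalized signal values: in each library 100% of them were whole multiples, within 0.01 reads, of the value of 1 read. Reads were recovered from that value. The main test was limma 3.58.1 (R 4.3.3), with a trend in the variance, on log2(normalized cpm + 1) of all 15213 listed genes in 13 libraries, condition as the only term and Benjamini-Hochberg adjustment. The filter of the methods (genes at 5 cpm or less in the majority of libraries left out) drops genes that are high only in glands, so it was kept as an alternative. On the recovered reads, edgeR 4.0.16 called 1715 genes lower and 1830 higher, and DESeq2 1.42.0 called 1716 and 2038. The limma test called 1538 lower and 1603 higher. Levels are mean ± SD, and SEs are limma's. Exact permutation tests had 286 assignments.

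The members and lists were chosen with earlier results of these data known. Named genes were all members and the 5 genes most like the members in the tumors (mean of at least 1 normalized cpm). Each related list gave the called gene that rose most, the 2 that fell most and any gene needed for a count of 5 or fewer. For the marker lists, the genes behind a count were not all named. Of the list genes, 4 were not in the table analysed here (Sfrp5, Cideb, Fitm1 and G0s2), and 1 further gene of the lists is not reported here. Coordinates are those of RefSeq on GRCm38.p6, matched through the Entrez ID for 15106 genes, with exon lengths taken over all exons of a gene. Alternatives were another pseudocount (0.1 or 5), the filter, other scalings, edgeR and DESeq2, 1 mean per mouse, mouse as a correlated block, a replicate block, each library left out, the mouse with 3 tumors left out, and tumors 4 and 7 left out.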

Additional observations from a re-analysis of the deposited data

Results flagged for a closer look

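In the tumors, 8 of the 10 members had a library that stood apart from the remaining tumors by Dixon's test (n = 10, critical value 0.466 for the gap divided by the range). Chance alone gives such a library in about 1 of 20 groups only where values are independent and normally distributed. The test was made on normalized cpm and not on the log2 scale, and some tumors share a female. This rate therefore cannot be set against the count of 8, which is descriptive. In 7 of the 8 members the library was tumor 4, at 26.4 normalized cpm for Adipoq, 3.24 for Lep, 17.7 for Retn, 124 for Cfd, 11.4 for Plin1, 20.4 for Plin4 and 18.2 for Cidec. These 7 values come from a single library and are not separate events. The same library held the highest sum of skeletal muscle genes (1900) and of adipocyte genes (434), and the part of either in these values was not tested. For Pnpla2 it was tumor 6, at 226 normalized cpm, the library with the highest milk gene sum (50021). Lipe and Lpl had no such library.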

How the results depend on the processing

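Over 26 alternatives, each of the 254 values obtained for the members kept its direction and its call, with adjusted p of at most 0.0231 (Pnpla2). With the filter of the methods, 4 members (Cfd, Lipe, Pnpla2 and Lpl) were left in the table and were called lower. Of the 11795 genes past that filter, 825 were called lower and 1204 higher. With a pseudocount of 5, 1033 genes were called lower and 927 higher. Scaled to luminal epithelial genes, 2273 were called lower and 1062 higher, and for cpm without factors 1077 and 2374. Leaving out each library in turn gave 10 members called lower, 1244 to 1749 genes lower and 1279 to 1895 higher in all, and 27 to 29 lower and 1 to 2 higher in the related lists. The 2 related genes called higher, Metrnl and Cebpd, became 1 with a pseudocount of 5, the epithelial scaling, the replicate block, without tumors 4 and 7, and without tumor 7, gland 1 or gland 2. Over all genes the median log2 fold change was 0.01, but 0.31 for cpm without scaling factors and -0.28 with the epithelial scaling, and values can be read relative to it.

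Replicate numbers do not pair these samples, which come from different mice: the deviations of same-numbered tumors and glands correlated at -0.58, 0.04 and -0.66. With the replicate block, which leaves only 3 tumors and 3 glands, 564 genes were called lower and 547 higher, all 10 members remained called, and Plin1 to Plin4 was at -1.30 (adjusted p = 0.417). Not every sample correlated best with its own number.

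Plin1 to Plin4 lost its call with 1 mean per mouse (-1.19, adjusted p = 0.119), without the mouse with 3 tumors (-1.12, adjusted p = 0.0833) and without any gland (adjusted p from 0.0758 to 0.152), where fewer libraries raise the smallest p of the exact test; leaving out single libraries gave -1.37 to -1.24. Adipoq to Lep was at -0.25 with a pseudocount of 0.1 (adjusted p = 0.671) and passed with 5 (-2.39, adjusted p = 0.0175), without tumors 4 and 7 (-2.01) and without tumor 4 (-1.87) or tumor 7 (-1.83), and ranged from -2.18 to -1.38 without single libraries. Lipe to Pnpla2 passed without tumor 7 (-0.96) and without tumors 4 and 7 (-1.03), with a range of -0.96 to -0.74 without single libraries. Cidec to Plin1 was at 1.03 with a pseudocount of 0.1 and turned negative with 5 (-0.38), without gland 1 (-0.04), gland 2 (-0.13) or the mouse with 3 tumors (-0.027), with a range of -0.13 to 0.41 without single libraries. Lpl to Lipe ranged from -0.84 to -0.32 without single libraries. The cause of these changes was not tested. Plin3 turned negative with the epithelial scaling (-0.068), and Abhd5, at -0.55 to 0.015 without single libraries, positive without gland 3 and for cpm without factors (0.00079).
Metrnl was no longer called higher in 7 alternatives, Nr1h3 lower in 3, and Rarres2, Cdh13, Cebpa, Gpihbp1 and Tbx15 in 1 each, while Bscl2 passed in 5.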
